A study of Rattus norvegicus with 24 samples.

Results

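Imprinted genes are transcribed mainly from the copy inherited from 1 parent, because DNA methylation set in sperm or egg marks the parental copies differently. Most sit in clusters that share a control region, and many act on growth, placental function, hypothalamic feeding circuits and maternal behaviour. In mice the pattern can change with cell type, so that a gene silenced on the maternal copy in one tissue is read from both copies, or from the other copy, in another. The 36 imprinted genes described here were chosen by symbol, and all 36 were found among the 37403 genes of the deposited tables. Taking the parental copy from general knowledge, largely of the mouse, 19 were set in a paternally expressed class, 13 in a maternally expressed class and 4 in a mixed class whose copy depends on promoter or cell type (Grb10, Blcap, Gnas and Inpp5f). The RNA values are sums over both copies and hold no measurement of which copy was read.

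RNA was sequenced from bilateral punches of the ventral tegmental area (VTA) and the nucleus accumbens (NAC). Dopamine neurons lie in the VTA and project to the NAC, a striatal region. The punches came from first-generation rats of at least 60 days of age, all described as male. Their fathers had been given access to morphine (MOR-sired) or to saline (SAL-sired) for self-administration over 60 days, and the offspring themselves carry no label of drug treatment. There were 5 MOR-sired and 5 SAL-sired VTA libraries, and 7 MOR-sired and 7 SAL-sired NAC libraries. No strain, litter or animal was named, so the spread behind each p-value is that between libraries and may be partly technical. Levels are given in CPM (estimated counts per 1e6 counts of the library), which in these tables are already divided by transcript length and can be compared between genes.

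Totals ran from 23.6 to 43.5 M estimated counts in VTA and from 21.9 to 41.3 M in NAC (1 M is 1e6 counts), and no library was a copy of another. Although all samples are described as male, 4 VTA libraries (MOR-sired 3, 4 and 5 and SAL-sired 5) held 78.9 to 108 CPM of Xist. The other VTA libraries held at most 0.253 CPM and the NAC libraries 0.228 CPM. The same 4 libraries held at most 0.072 CPM of the Y chromosome gene Ddx3y. The other VTA libraries held at least 40.3 CPM and the NAC libraries at least 28.7 CPM. By both genes these 4 libraries read as female, against their label. They are spread unevenly over the sire groups in VTA, and none is in NAC. Markers of dopamine neurons summed to 4228 to 7472 CPM in MOR-sired VTA and 3727 to 8201 CPM in SAL-sired VTA, against 37.2 to 113 CPM over all NAC libraries. Markers of striatal projection neurons summed to 496 to 7664 CPM in MOR-sired NAC and 1512 to 5508 CPM in SAL-sired NAC, so that NAC punches ran from cortex-rich to striatum-rich, and MOR-sired NAC 4 was the most striatal. Serotonin neuron markers summed to 114 to 284 CPM in MOR-sired VTA and 11.8 to 106 CPM in SAL-sired VTA and did not overlap. Markers of meningeal fibroblasts were highest in SAL-sired VTA 1 and 2 (group range 120 to 385 CPM, against 112 to 153 CPM in MOR-sired VTA). In bulk punches, fewer cells of a type and less RNA per cell cannot be told apart.

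Promoters are shown for 4 of the members that moved together across the NAC libraries, as described below. Each runs from 250 bases before to 50 bases after the start site in RefSeq assembly GRCr8, in the direction of the gene. Capitals mark TGCCGC or its reverse complement GCGGCA, the core of the motif bound, when methylated, by ZFP57, a zinc finger protein that maintains imprints in mouse and human.
Peg10 (chr4:33808776-33809075, plus strand): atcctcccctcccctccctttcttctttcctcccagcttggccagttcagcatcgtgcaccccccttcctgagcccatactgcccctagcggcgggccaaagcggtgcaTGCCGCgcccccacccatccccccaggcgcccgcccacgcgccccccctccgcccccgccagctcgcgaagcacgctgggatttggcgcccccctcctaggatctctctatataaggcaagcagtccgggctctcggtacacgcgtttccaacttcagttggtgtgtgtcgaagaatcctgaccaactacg
Sgce (chr4:33808739-33809038, minus strand): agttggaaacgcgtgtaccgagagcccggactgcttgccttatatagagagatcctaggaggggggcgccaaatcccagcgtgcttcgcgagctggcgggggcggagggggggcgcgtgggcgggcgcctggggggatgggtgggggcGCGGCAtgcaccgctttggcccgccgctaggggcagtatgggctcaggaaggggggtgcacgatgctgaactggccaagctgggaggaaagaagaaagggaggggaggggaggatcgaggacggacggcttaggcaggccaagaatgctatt
Dlk1 (chr6:134192347-134192646, plus strand): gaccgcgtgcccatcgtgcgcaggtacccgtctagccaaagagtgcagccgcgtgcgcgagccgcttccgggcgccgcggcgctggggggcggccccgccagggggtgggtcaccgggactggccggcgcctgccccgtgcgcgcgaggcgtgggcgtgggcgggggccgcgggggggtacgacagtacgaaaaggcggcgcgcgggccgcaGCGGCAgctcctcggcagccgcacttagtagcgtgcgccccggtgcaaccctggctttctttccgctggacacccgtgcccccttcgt
Grb10 (chr14:90816338-90816637, minus strand): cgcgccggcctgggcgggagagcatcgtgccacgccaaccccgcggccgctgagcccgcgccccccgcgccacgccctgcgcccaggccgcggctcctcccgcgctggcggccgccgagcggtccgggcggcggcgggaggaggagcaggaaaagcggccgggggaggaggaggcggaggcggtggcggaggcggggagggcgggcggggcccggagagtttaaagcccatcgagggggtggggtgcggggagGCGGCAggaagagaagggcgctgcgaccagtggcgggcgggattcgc
Peg10 and Sgce are read away from each other from start sites with 237 bases between them, and their windows share 263 bases, which hold 20 CG pairs and the motif match marked in both. The Dlk1 window held 45 CG pairs and the Grb10 window 44, against a median of 7 in the 33469 promoter windows of the table. Of the 36 members, 31 had at least 1 window, 34 windows in all. The motif was found on either strand in 14 of these windows (41.2%), each of a different gene, and in 11.7% of all windows. Besides the genes shown, Plagl1, Snurf, Snrpn, Igf2, Blcap, Calcr, Copg2, Nap1l5, Meg3 and Rasgrf1 held it. Usp29, Ppp1r9a, Inpp5f and Commd1 moved with the genes shown in NAC, and their windows held no match. These windows had 3, 11, 15 and 8 CG pairs, so the match is not shared by all members that moved together. The motif itself holds a CG pair, and the 34 member windows had a median of 17.5 CG pairs against 7 in all windows. The part of CG content in the share with the motif was not tested. Peg10 and Sgce count the same match, and the Snurf and Snrpn windows overlap, so the 14 windows are not independent. A match is a description of the letters and not of binding.

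A member was tested where it passed a filter on low counts. H19, the maternally expressed non-coding RNA next to Igf2, failed everywhere, with a highest value of 0.263 CPM in any library. Asb4 failed in NAC alone, and Dio3 and Phlda2 failed in VTA alone, so 33 members were tested for the sire effect in VTA, 34 in NAC and 35 in the fit over all 24 libraries. Levels spanned a wide range. Gnas, Nnat, Dlk1, Meg3 and Snurf each averaged at least 764 CPM in MOR-sired and in SAL-sired VTA, while Plagl1, Mkrn3, Slc22a18, Phlda2 and H19 reached at most 2.62 CPM in any library of either region.

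**Figure D1:**
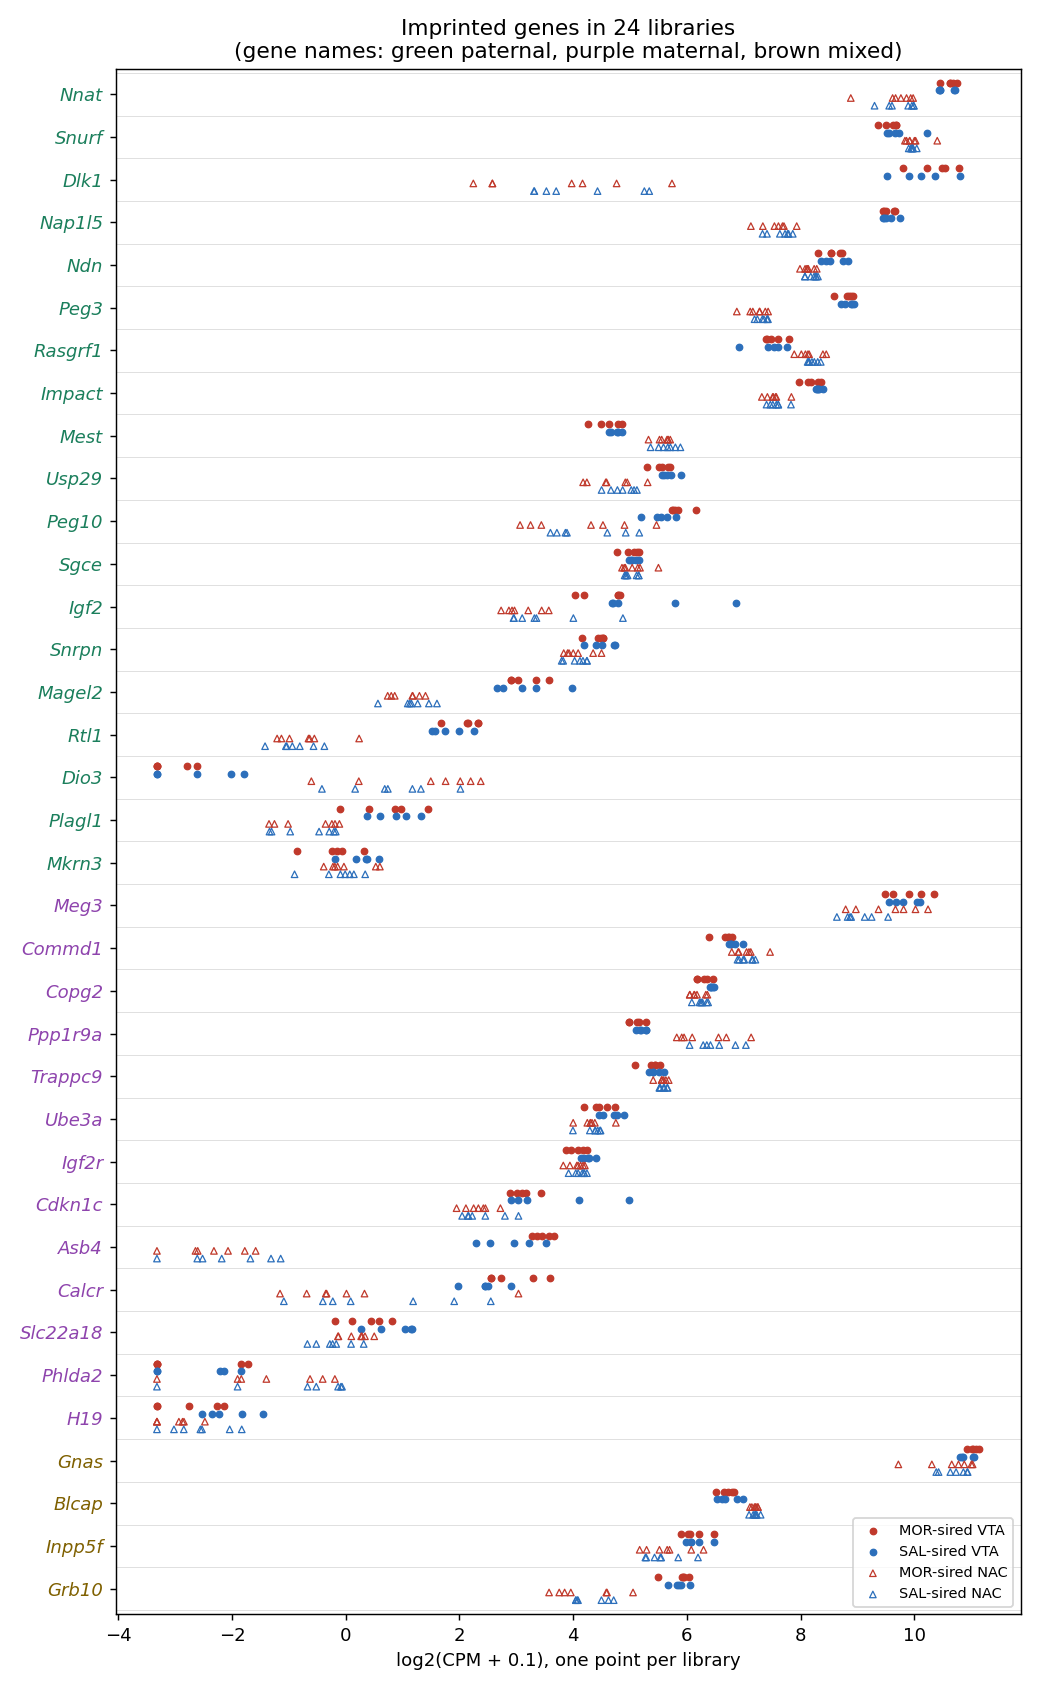
Level of each of the 36 imprinted genes on a log2(CPM + 0.1) axis, with 1 point per library, filled circles for VTA and open triangles for NAC, red for MOR-sired and blue for SAL-sired. Genes are ordered by class and mean level. Dlk1 and Asb4 lie far to the right in VTA, Dio3 lies far to the right in NAC, and red and blue points overlap within a region for each gene.

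The first comparison is between the regions. Of the 35 members tested, 31 differed between VTA and NAC at an adjusted p under 0.05 in edgeR's quasi-likelihood test, 22 higher and 9 lower in VTA. Over all 20603 genes tested the share called was 69.0%, with 34.3% higher and 34.7% lower, against which the 88.6% of members called must be read. At 2-fold or more, 12 members were higher and 3 lower, against 9.97% and 10.8% of all genes. The values of all VTA libraries lay apart from those of all NAC libraries for 16 members, 11 above and 5 below, against 12.3% and 12.8% of all genes. Asb4, Dio3 and Phlda2 passed the filter only through the region where they are high, so the 32 members kept in both regions were also counted. Of those, 21 were higher and 7 lower in VTA, 11 and 1 of them by 2-fold or more, while of the 17697 genes kept in both regions 71.0% were called, 34.1% higher and 36.9% lower, and 7.37% were higher and 9.27% lower by 2-fold or more. The median log2 fold change of VTA over NAC was 0.49 over these 32 members and -0.01 over the 17697 genes. The regions lay apart for 14 of the 32 members, 10 above and 4 below, which was not counted over the 17697 genes. Region goes with table and library number in this study, and the 3 cannot be told apart.

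The balance differed by class as a matter of description. Of 18 paternal members kept in both regions, 13 were higher and 3 lower in VTA, with a median log2 fold change of 0.80. Of 10 maternal members, 6 were higher and 3 lower, with a median of 0.15. Of the 4 mixed members, 2 were higher and 1 lower, with a median of 0.35. No test between the classes was made.

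**Figure D2:**
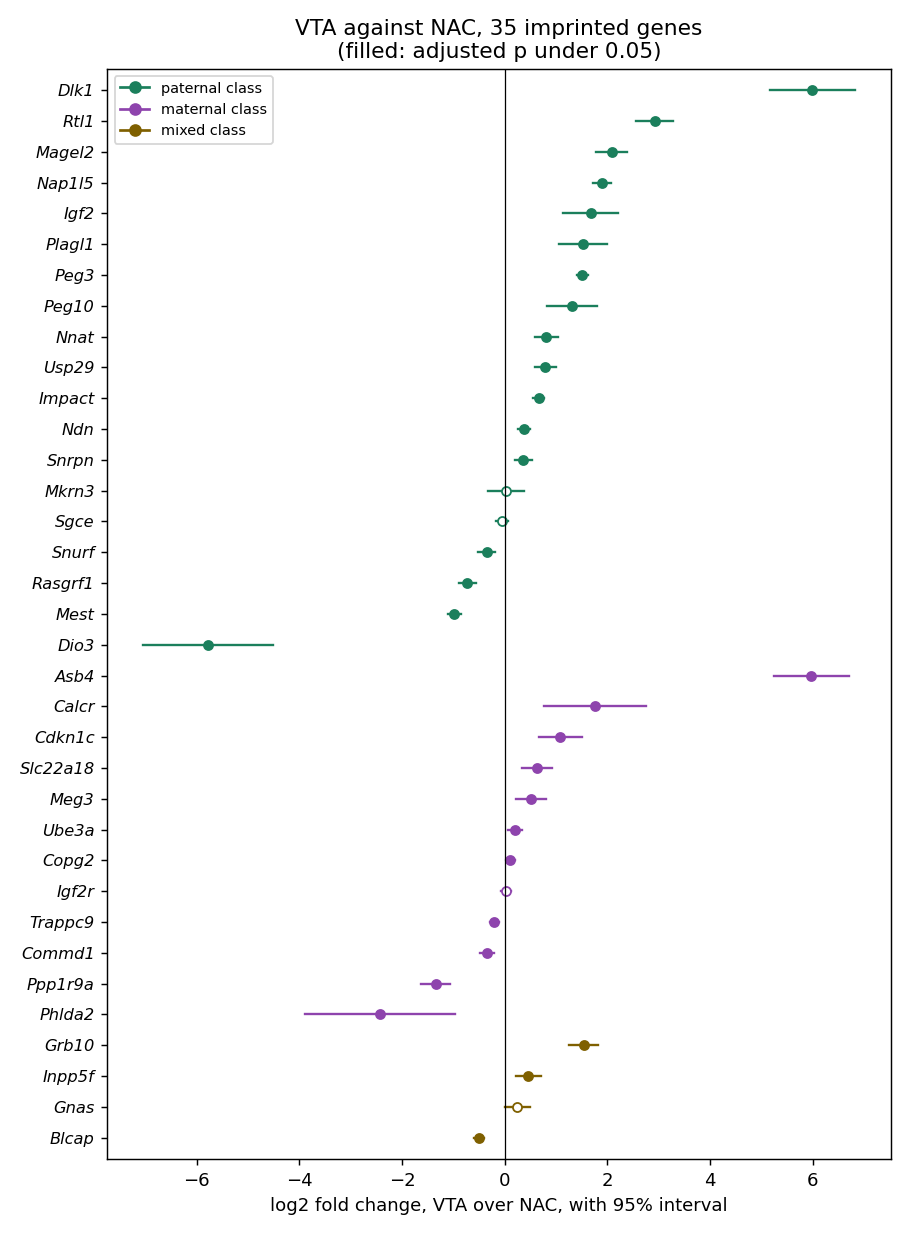
Log2 fold change of VTA over NAC with its 95% interval for the 35 imprinted genes tested, grouped and coloured by class and ordered by size. Filled points passed an adjusted p of 0.05. Dlk1 (5.99) and Asb4 (5.98) lie farthest right, Dio3 (-5.78) farthest left, the fitted points of Asb4, Dio3 and Phlda2 resting on a region with values near 0 CPM, and Igf2r, Sgce, Mkrn3 and Gnas are open.

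The cluster of Dlk1, Rtl1, Meg3 and Dio3 held members higher and members lower in VTA. Dlk1 encodes a membrane protein related to Notch ligands, and is known in midbrain dopamine neurons. It stood at 1197, 896, 1769, 1489 and 1444 CPM in MOR-sired VTA and at 1323, 1110, 730, 958 and 1798 CPM in SAL-sired VTA. In NAC it ran from 4.64 to 53.3 CPM (median 15.6) in MOR-sired and from 9.82 to 40.4 CPM (median 12.9) in SAL-sired libraries. The lowest VTA library thus lay far above the highest NAC library, and Dlk1 was 63.7-fold higher in VTA (95% interval 35.9 to 113, adjusted p = 5.85e-12). Rtl1, a gene derived from a retrotransposon that is needed in the mouse placenta, had 4.33, 3.09, 4.93, 4.90 and 4.27 CPM in MOR-sired VTA and 3.86, 3.23, 2.75, 2.85 and 4.67 CPM in SAL-sired VTA. In MOR-sired NAC it ran from 0.333 to 1.08 CPM (median 0.535) and in SAL-sired NAC from 0.274 to 0.67 CPM (median 0.421). It was 7.56-fold higher in VTA (5.90 to 9.70), without overlap.

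Meg3, the maternally expressed long non-coding RNA of the same cluster, had 719, 794, 1116, 958 and 1302 CPM in MOR-sired VTA and 755, 823, 1099, 1057 and 893 CPM in SAL-sired VTA. In NAC it ran from 444 to 1211 CPM (median 814) in MOR-sired and from 399 to 745 CPM (median 475) in SAL-sired libraries. The regions overlapped through MOR-sired NAC 2, 4, 5 and 6 and SAL-sired NAC 7, and Meg3 was 1.43-fold higher in VTA (1.17 to 1.75, adjusted p = 0.00265). Without the 4 Xist-expressing libraries that call was lost (log2 0.36, adjusted p = 0.092). Dio3 encodes the deiodinase that inactivates thyroid hormone and had the opposite distribution. It was at most 0.0623 CPM in MOR-sired VTA and 0.19 CPM in SAL-sired VTA, with 3 and 2 libraries at 0, against 0.557 to 5.08 CPM (median 3.28) in MOR-sired NAC and 0.648 to 3.95 CPM (median 1.57) in SAL-sired NAC. The VTA libraries lay below all NAC libraries, but Dio3 passed the filter only through NAC and is too near 0 CPM in VTA for a fold to be read.

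The genes around Peg10 on chromosome 4 also differed in direction. Asb4, a maternally expressed gene known from hypothalamic neurons, had 12.6, 10.9, 11.8, 10.2 and 9.55 CPM in MOR-sired VTA and 9.20, 7.68, 4.81, 5.67 and 11.3 CPM in SAL-sired VTA. No NAC library passed 0.352 CPM, so the regions lay apart, but Asb4 passed the filter only through VTA and its level in NAC is too near 0 for a fold to be read. Calcr, the calcitonin receptor, had 12.0, 9.65, 5.77, 6.50 and 5.74 CPM in MOR-sired VTA and 5.35, 7.36, 5.34, 3.84 and 5.53 CPM in SAL-sired VTA. In MOR-sired NAC it ran from 0.348 to 8.11 CPM (median 0.691) and in SAL-sired NAC from 0.37 to 5.76 CPM (median 0.962). Calcr was 3.39-fold higher in VTA (1.71 to 6.71, adjusted p = 0.00234). The overlap came from MOR-sired NAC 4 and SAL-sired NAC 7. Without MOR-sired NAC 4 the log2 fold change was 2.40 in place of 1.76. Among the SAL-sired libraries alone it missed the threshold (log2 1.33, adjusted p = 0.0607).

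Peg10, another gene of retrotransposon origin, had 71.2, 53.4, 55.5, 54.0 and 57.5 CPM in MOR-sired VTA and 46.4, 49.9, 44.2, 36.3 and 56.1 CPM in SAL-sired VTA. It ran from 8.27 to 44.1 CPM (median 19.8) in MOR-sired NAC and from 12.0 to 35.7 CPM (median 14.7) in SAL-sired NAC, and was 2.47-fold higher in VTA (1.76 to 3.47, adjusted p = 3.84e-05). Sgce, which shares its promoter region and encodes epsilon-sarcoglycan, the myoclonus-dystonia protein, did not pass. Sgce averaged 32.3 ± 3.30 CPM in MOR-sired VTA, 33.3 ± 1.62 CPM in SAL-sired VTA (SD, n = 5 each), 34.0 ± 5.64 CPM in MOR-sired NAC and 32.4 ± 2.59 CPM in SAL-sired NAC (n = 7 each), a VTA over NAC fold of 0.965 with an interval of 0.886 to 1.05. Ppp1r9a, the maternally expressed actin-binding neurabin of synapses, was lower in VTA without overlap, at 31.4 to 38.6 CPM in MOR-sired VTA and 34.3 to 38.8 CPM in SAL-sired VTA, against 56.5 to 140 CPM in MOR-sired NAC and 66.1 to 131 CPM in SAL-sired NAC (fold 0.394, interval 0.324 to 0.479).

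Peg3 and Usp29 are neighbours read from the paternal copy. Peg3, a zinc finger gene that affects maternal care in mice, had 453, 383, 484, 460 and 471 CPM in MOR-sired VTA and 471, 441, 421, 489 and 478 CPM in SAL-sired VTA. It ran from 118 to 172 CPM (median 155) in MOR-sired NAC and from 146 to 172 CPM (median 164) in SAL-sired NAC. Peg3 was 2.85-fold higher in VTA, with the tightest interval of the members changed by 2-fold or more (2.65 to 3.07, adjusted p = 2.44e-17). Usp29, named for its likeness to deubiquitinases, was 1.73-fold higher (1.5 to 2). Its 39.3 to 52.2 CPM in MOR-sired VTA and 47.4 to 59.3 CPM in SAL-sired VTA overlapped the 18 to 39.6 CPM in MOR-sired NAC, where SAL-sired NAC had 22.5 to 34.7 CPM.

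In the Prader-Willi and Angelman cluster, Magel2, a regulator of a ubiquitin ligase complex on endosomes, was 4.23-fold higher in VTA (3.43 to 5.22). It had 7.42, 8.04, 10.0, 7.36 and 11.8 CPM in MOR-sired VTA and 6.72, 6.20, 10.0, 15.7 and 8.47 CPM in SAL-sired VTA, against 1.57 to 2.54 CPM in MOR-sired NAC and 1.38 to 2.94 CPM in SAL-sired NAC. Its relative Ndn, necdin, which restrains growth in neurons, was more abundant and differed less. Ndn had 317 to 424 CPM in MOR-sired VTA and 327 to 458 CPM in SAL-sired VTA, against 254 to 312 CPM in MOR-sired NAC and 270 to 317 CPM in SAL-sired NAC (fold 1.29, interval 1.19 to 1.41), with no overlap by a narrow margin. Mkrn3, a brake on puberty in humans, averaged 0.80 ± 0.247 CPM in MOR-sired VTA, 1.11 ± 0.232 CPM in SAL-sired VTA, 0.948 ± 0.302 CPM in MOR-sired NAC and 0.857 ± 0.233 CPM in SAL-sired NAC and did not pass (fold 1.02, interval 0.795 to 1.3). Ube3a, the Angelman ubiquitin ligase read from the maternal copy in neurons, was 1.14-fold higher in VTA (adjusted p = 0.012), a call lost without the 4 Xist-expressing libraries (adjusted p = 0.0561).

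Snurf and Snrpn come from one transcript that encodes a small protein and a splicing protein, and their values went apart. Snurf had 662 to 823 CPM in MOR-sired VTA and 735 to 1199 CPM in SAL-sired VTA, against 914 to 1356 CPM in MOR-sired NAC and 957 to 1056 CPM in SAL-sired NAC (fold 0.783, adjusted p = 0.000348). Snrpn had 17.8 to 23.0 CPM in MOR-sired VTA and 18.2 to 26.7 CPM in SAL-sired VTA, against 14.2 to 22.5 CPM in MOR-sired NAC and 13.8 to 18.8 CPM in SAL-sired NAC (fold 1.28, adjusted p = 0.00032). How reads were split between these overlapping names is uncertain, and summed to 1 row they gave a log2 fold change of -0.34 (adjusted p = 0.00041).

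Igf2 and Cdkn1c are both tied to growth, Igf2 as a paternally expressed growth factor and Cdkn1c as a maternally expressed inhibitor of the cell cycle. Igf2 had 27.7, 18.1, 16.2, 28.4 and 27.6 CPM in MOR-sired VTA and 116, 55.5, 25.5, 27.4 and 25.9 CPM in SAL-sired VTA. In NAC it ran from 6.55 to 11.8 CPM (median 7.72) in MOR-sired and from 7.63 to 29.2 CPM (median 9.87) in SAL-sired libraries. It was 3.19-fold higher in VTA (2.2 to 4.63, adjusted p = 5.06e-06), overlapping through SAL-sired NAC 7. Cdkn1c had 10.7, 8.45, 7.30, 7.97 and 8.90 CPM in MOR-sired VTA and 31.6, 17.0, 7.39, 8.07 and 8.99 CPM in SAL-sired VTA, against 3.76 to 6.49 CPM in MOR-sired NAC and 4.03 to 8.11 CPM in SAL-sired NAC (fold 2.12, interval 1.6 to 2.82). The regions overlapped through the highest NAC library. Phlda2, a brake on placental growth in the same cluster as Cdkn1c, was under 1 CPM in each library and passed the filter only through NAC, so no fold is given. Slc22a18, a transporter gene of that cluster, was 1.55-fold higher in VTA (1.26 to 1.91), at low levels and with overlapping regions. It averaged 1.21 CPM in MOR-sired VTA and 1.75 CPM in SAL-sired VTA, against 1.04 CPM in MOR-sired NAC and 0.786 CPM in SAL-sired NAC. Igf2r, the receptor that takes Igf2 to lysosomes, averaged 16.7 ± 1.71 CPM in MOR-sired VTA, 19 ± 1.3 CPM in SAL-sired VTA, 16.7 ± 1.51 CPM in MOR-sired NAC and 17.3 ± 1.31 CPM in SAL-sired NAC (fold 1.02, interval 0.956 to 1.10).

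Among the remaining members, Nap1l5, of the nucleosome assembly protein family, had 702 to 814 CPM in MOR-sired VTA and 701 to 862 CPM in SAL-sired VTA, against 140 to 244 CPM in MOR-sired NAC and 161 to 233 CPM in SAL-sired NAC. It was 3.72-fold higher in VTA (3.31 to 4.18). Plagl1, a zinc finger transcription factor that regulates other imprinted genes in mice, was 2.88-fold higher (2.09 to 3.96) at low levels, 0.828 to 2.62 CPM in MOR-sired VTA and 1.19 to 2.41 CPM in SAL-sired VTA, against at most 0.825 CPM in MOR-sired NAC and 0.785 CPM in SAL-sired NAC. Grb10, an adaptor that dampens insulin and IGF receptor signals and is read from the paternal copy in mouse neurons, was 2.90-fold higher (2.38 to 3.53), at 45.2 to 65.4 CPM in MOR-sired VTA and 50.5 to 66.8 CPM in SAL-sired VTA, against 11.8 to 33.1 CPM in MOR-sired NAC and 16.4 to 26.1 CPM in SAL-sired NAC. None of these 3 overlapped between regions. Impact, a regulator of translation under stress, was 1.58-fold higher (1.47 to 1.70), and Inpp5f, a phosphoinositide phosphatase, 1.37-fold higher (1.16 to 1.62).

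Mest, a paternally expressed gene of the hydrolase fold linked to maternal behaviour in mice, was lower in VTA without overlap. It had 22.5, 19.2, 27.6, 24.6 and 28.8 CPM in MOR-sired VTA and 24.6, 27.7, 27.1, 25.2 and 28.9 CPM in SAL-sired VTA, against 40.0 to 52.2 CPM (median 50.1) in MOR-sired NAC and 41.0 to 59.1 CPM (median 50.6) in SAL-sired NAC (fold 0.507, interval 0.465 to 0.553). Its overlapping neighbour Copg2, a coat protein subunit of Golgi vesicles, was 1.08-fold higher in VTA (1.02 to 1.14), a call lost among SAL-sired libraries alone (adjusted p = 0.0947). Rasgrf1, a synaptic exchange factor for Ras, was lower in VTA at 167 to 221 CPM in MOR-sired VTA and 121 to 216 CPM in SAL-sired VTA, against 237 to 350 CPM in MOR-sired NAC and 279 to 327 CPM in SAL-sired NAC (fold 0.605, interval 0.540 to 0.678, no overlap).

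Nnat, neuronatin, a small membrane protein, lies inside an intron of Blcap and the pair moved in opposite directions. Nnat had 1407 to 1730 CPM in MOR-sired VTA and 1380 to 1675 CPM in SAL-sired VTA, against 472 to 1010 CPM in MOR-sired NAC and 631 to 1019 CPM in SAL-sired NAC, 1.76-fold higher in VTA (1.51 to 2.04). Blcap, named from bladder cancer, was lower, at 91.4 to 114 CPM in MOR-sired VTA and 92.6 to 127 CPM in SAL-sired VTA, against 138 to 152 CPM in MOR-sired NAC and 137 to 157 CPM in SAL-sired NAC (fold 0.704, interval 0.658 to 0.753). Neither overlapped between regions. As for Snurf and Snrpn, how reads were split between Nnat and Blcap is uncertain, and so it is for Mest and Copg2. Commd1, a copper and endosome protein (fold 0.79), and Trappc9, of a vesicle tethering complex (fold 0.871), were slightly lower in VTA. Gnas, whose locus gives the stimulatory G protein alpha subunit and other products that these values pool, was the most abundant member at 1945 to 2266 CPM in MOR-sired VTA and 1788 to 2123 CPM in SAL-sired VTA, against 844 to 2087 CPM in MOR-sired NAC and 1339 to 1964 CPM in SAL-sired NAC. It missed the threshold (fold 1.19, adjusted p = 0.063) and passed with DESeq2 (adjusted p = 0.0384).

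Genes outside the 36 give a frame. Of the 17697 genes kept in both regions, 71.0% were called, 34.1% higher and 36.9% lower in VTA. Of 27 other imprinted genes kept in both regions, 16 were higher and 5 lower in VTA. Zim1, a neighbour of Peg3, was 6.16-fold higher. Dlx5, a homeobox gene of forebrain interneurons and striatum, is not among those 27, since it passed the filter only through NAC. It had at most 0.931 CPM in any VTA library, against at least 16.1 CPM in each NAC library. Of 21 genes for imprint maintenance, 4 were higher and 12 lower in VTA, the lower ones including Dnmt1, the maintenance DNA methyltransferase (fold 0.627), its partner Uhrf1 (fold 0.373) and Trim28, the corepressor that ZFP57 recruits (fold 0.735). Zfp57 itself was 1.31-fold higher. Of 13 genes for IGF signalling, 5 were higher and 6 lower. The share called was 77.8% of the other imprinted genes, 76.2% for imprint maintenance and 84.6% for IGF signalling. These shares must be read against the 71.0% of all genes kept in both regions.

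The second comparison asks whether fathers' morphine left a difference in the offspring. In VTA, edgeR's quasi-likelihood test called 0 of 33 members and 0 of all 19923 genes (0.00%), with 1058 genes at an unadjusted p under 0.05 (5.31%). DESeq2 called 27 genes and limma-voom with sample quality weights 0, and neither called a member, nor did edgeR without the 4 Xist-expressing libraries. In NAC the test called 0 of 34 members and 0 of 18220 genes (0.00%), with 1126 at an unadjusted p under 0.05 (6.18%). DESeq2 called 4 genes there and limma-voom with sample quality weights 52, again with no member. No member's MOR-sired and SAL-sired libraries lay apart in either region, against 1.23% of all genes in VTA and 0.0823% in NAC. Fitted differences were higher in MOR-sired VTA for 17 members and lower for 16, with a median log2 fold change of 0.00 (all genes -0.01). In NAC 10 were higher and 24 lower, with a median of -0.05 (all genes 0.00). The paternal members had medians of 0.02 in VTA and -0.06 in NAC and the maternal members -0.06 in VTA and -0.07 in NAC.

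**Figure D3:**
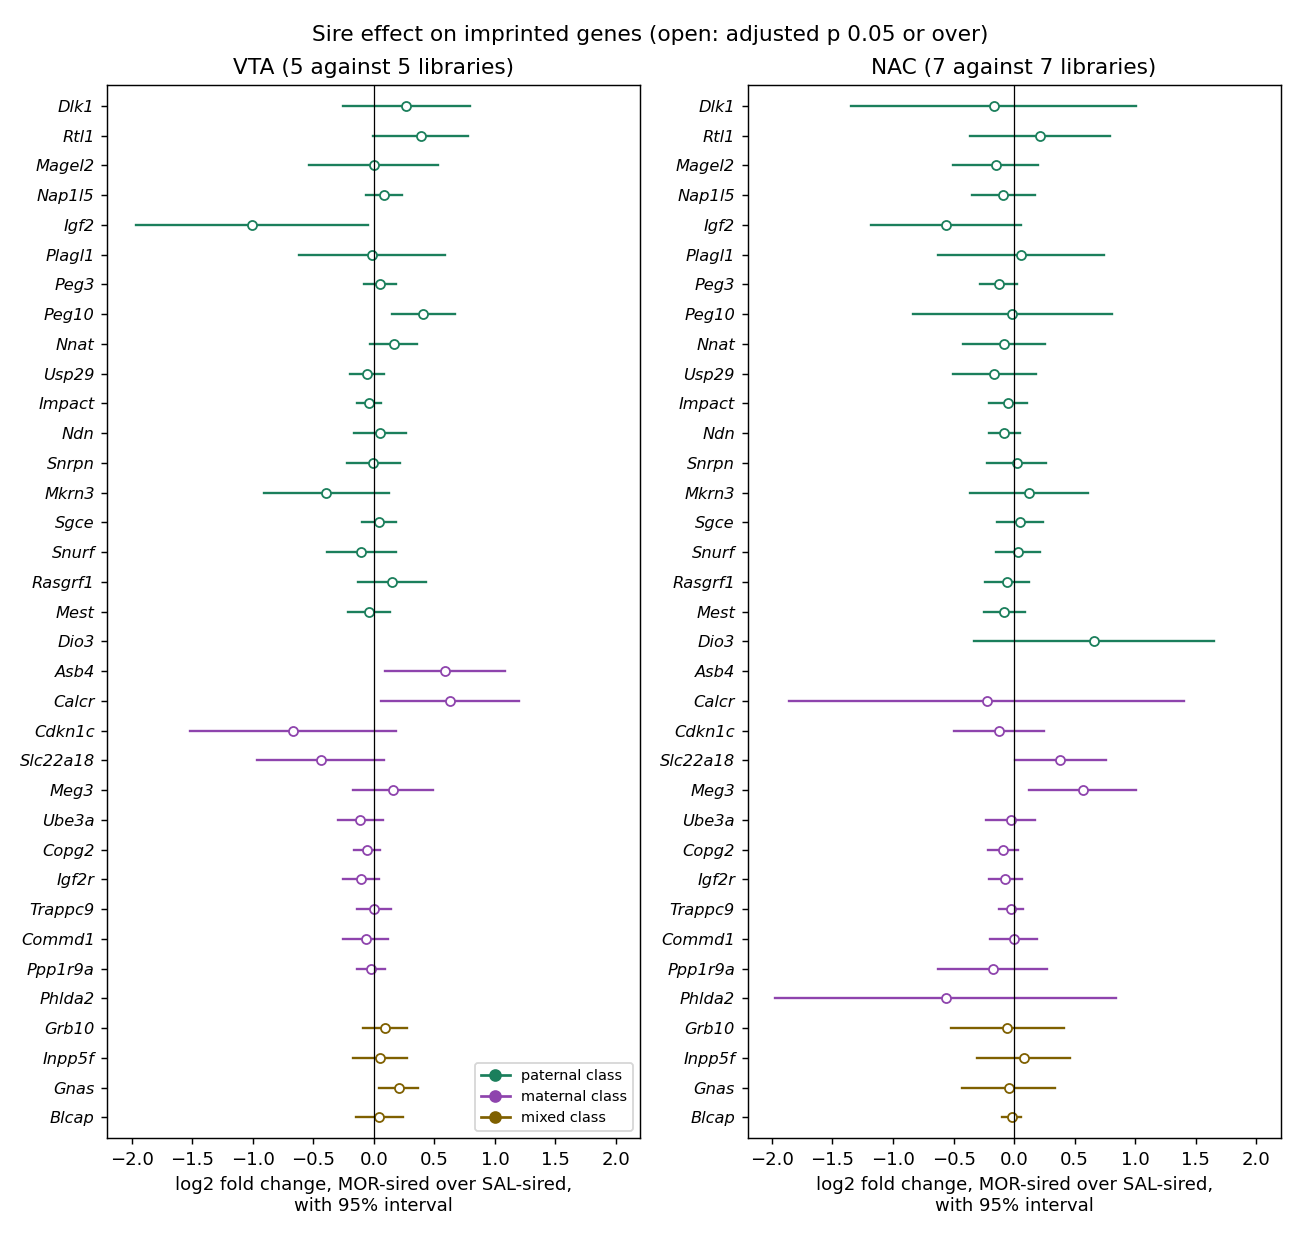
Log2 fold change of MOR-sired over SAL-sired libraries with its 95% interval for the imprinted genes, in VTA on the left and NAC on the right, coloured by class. Every point is open, since none passed an adjusted p of 0.05, and genes without a point did not pass the filter in that region. Igf2 lies farthest left in VTA (-1.01) and Dio3 farthest right in NAC (0.66).

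Of the members, 5 had an unadjusted p under 0.05 in VTA and 2 in NAC, and none of these passed adjustment over all genes. Peg10 had the smallest p. With the values given above, SAL-sired VTA 5 lay within the MOR-sired range and the other SAL-sired libraries lay below it. The fold was 1.33 (1.11 to 1.59, unadjusted p = 0.0055, adjusted p = 0.793). Across the 10 VTA libraries Peg10 and the serotonin neuron score had a Pearson r of 0.854 (permutation p = 0.00066, adjusted p = 0.0545). Spearman rho was 0.733 (adjusted p = 0.30), so the relation passed by neither measure. That score, the mean log2(CPM + 1) of its markers, separated the sire groups. Its part in the Peg10 difference was not tested.

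Asb4 was 1.51-fold higher in MOR-sired VTA (adjusted p = 0.907), Calcr 1.55-fold higher (adjusted p = 0.928) and Gnas 1.15-fold higher (adjusted p = 0.886), each with overlapping groups. Igf2 was the largest difference in VTA, with a fold of 0.498 (0.257 to 0.967, adjusted p = 0.928). The high values were those of SAL-sired VTA 1 and 2, also the libraries highest in meningeal markers. Without SAL-sired VTA 1 the log2 fold change was -0.42 in place of -1.01, and with the meningeal score as a covariate it was 0.11. Cdkn1c was also highest in SAL-sired VTA 1 and 2, with a log2 fold change of -0.67 (adjusted p = 0.958). It was -0.17 without SAL-sired VTA 1 and 0.30 with that covariate. All 12 meningeal markers were themselves lower in MOR-sired VTA, so the covariate does not separate meningeal content from sire group.

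In NAC, Meg3 was 1.48-fold higher in MOR-sired libraries (1.09 to 2.01, unadjusted p = 0.0162, adjusted p = 0.661). MOR-sired libraries 2, 4, 5 and 6 lay above every SAL-sired library and the others lay within their range. In VTA the Meg3 fold was 1.12 (0.888 to 1.40). Slc22a18 was 1.3-fold higher in MOR-sired NAC (adjusted p = 0.777) and had a fold of 0.738 in VTA (adjusted p = 0.953). The difference between these effects was the largest by p among members (log2 -0.81, SE 0.29, unadjusted p = 0.0102) and did not pass (adjusted p = 0.922). That test of the sire effect in VTA minus the sire effect in NAC called 0 of 35 members and 0 of 20603 genes (0.00%), with 984 at an unadjusted p under 0.05 (4.78%), while DESeq2 called 93 genes and no member. Igf2 in NAC had a fold of 0.678 (0.44 to 1.04, adjusted p = 0.831), and its log2 value of -0.56 was -0.22 without SAL-sired NAC 7. Peg3 had a fold of 0.915 in NAC (0.823 to 1.02) and 1.04 in VTA (0.947 to 1.14).

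For Snurf, read from the paternal copy, the fold of MOR-sired over SAL-sired libraries was 0.931 in VTA (0.765 to 1.13) and 1.02 in NAC (0.903 to 1.16). It was 1.04 for Ndn in VTA (0.894 to 1.20) and 0.946 in NAC (0.867 to 1.03). For Mest it was 0.972 in VTA (0.862 to 1.10) and 0.947 in NAC (0.844 to 1.06). For Snrpn it was 0.998 in VTA (0.858 to 1.16) and 1.01 in NAC (0.858 to 1.20). For Dlk1 the intervals were wide, with folds of 1.20 in VTA (0.838 to 1.73) and 0.89 in NAC (0.394 to 2.01).

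Lists related to imprinting gave no called gene for the sire effect either. Among other imprinted genes the smallest p in VTA belonged to Kcnk9, a maternally expressed potassium channel (fold 1.38), Slc38a4, an amino acid transporter (fold 1.77), and Begain, a postsynaptic protein (fold 1.18), with adjusted p of 0.793 to 0.886. In NAC they belonged to Ascl2 (fold 1.33), Tssc4 (fold 0.936) and Pon2 (fold 1.06). For imprint maintenance they included Dnmt3a (fold 0.918) and Zfp445 (fold 0.933) in VTA and Dnmt3b (fold 1.35) and Yy1 (fold 0.96) in NAC. For IGF signalling they were Igfbp3 (fold 0.715), Igf2bp3 (fold 1.29) and Igfbp4 (fold 0.449) in VTA and Igfbp6 (fold 1.83), Irs1 (fold 0.861) and Insr (fold 0.945) in NAC.

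Across the 14 NAC libraries a number of members followed the make-up of the punch. How many of all genes do so was not counted, so this is not known to set imprinted genes apart. Each of the 34 members was set against 10 cell type scores, 340 relations chosen after the values were seen, with p from 100000 permutations adjusted over all of them. In 25 relations both Pearson r and Spearman rho passed. The striatal projection neuron score took 10 of them, rising with Grb10, Peg10, Dlk1, Usp29, Ppp1r9a, Sgce, Inpp5f, Commd1 and Rtl1 and falling with Gnas. Grb10 had r = 0.957 and rho = 0.934 (adjusted p = 0.000756 and 0.0017), and r = 0.957 without the libraries farthest from the median. Within the sire groups r was 0.973 in MOR-sired and 0.949 in SAL-sired NAC. Peg10 had r = 0.94 (0.973 in MOR-sired and 0.974 in SAL-sired NAC), Dlk1 0.933 (0.945 in MOR-sired and 0.963 in SAL-sired NAC) and Usp29 0.928 (0.942 in MOR-sired and 0.866 in SAL-sired NAC). Sgce had r = 0.811 and Gnas -0.819.

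The range is seen in MOR-sired NAC alone, where MOR-sired NAC 2, the least striatal library, had 8.27 CPM of Peg10 and 11.8 CPM of Grb10, and MOR-sired NAC 4 had 44.1 CPM and 33.1 CPM. The cortical glutamatergic neuron score gave the mirror image, with r of 0.968 for Gnas and -0.959 for Sgce. Of the other relations that passed, 3 were with the dopamine neuron score, 2 with the serotonin neuron score and 1 with the choroid plexus score. In VTA, 1 of 330 such relations passed by both measures, that of Dlk1 with the dopamine neuron score. The 2 scores of striatum and cortex share the punch as their source and are not independent. Peg10, Grb10 and Dlk1 were higher in VTA than in NAC, although striatal markers summed to at most 358 CPM in MOR-sired and 352 CPM in SAL-sired VTA. Libraries numbered 1 to 8 and 9 to 14 were also taken apart, and r for Grb10 was 0.974 and 0.954.

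**Figure D4:**
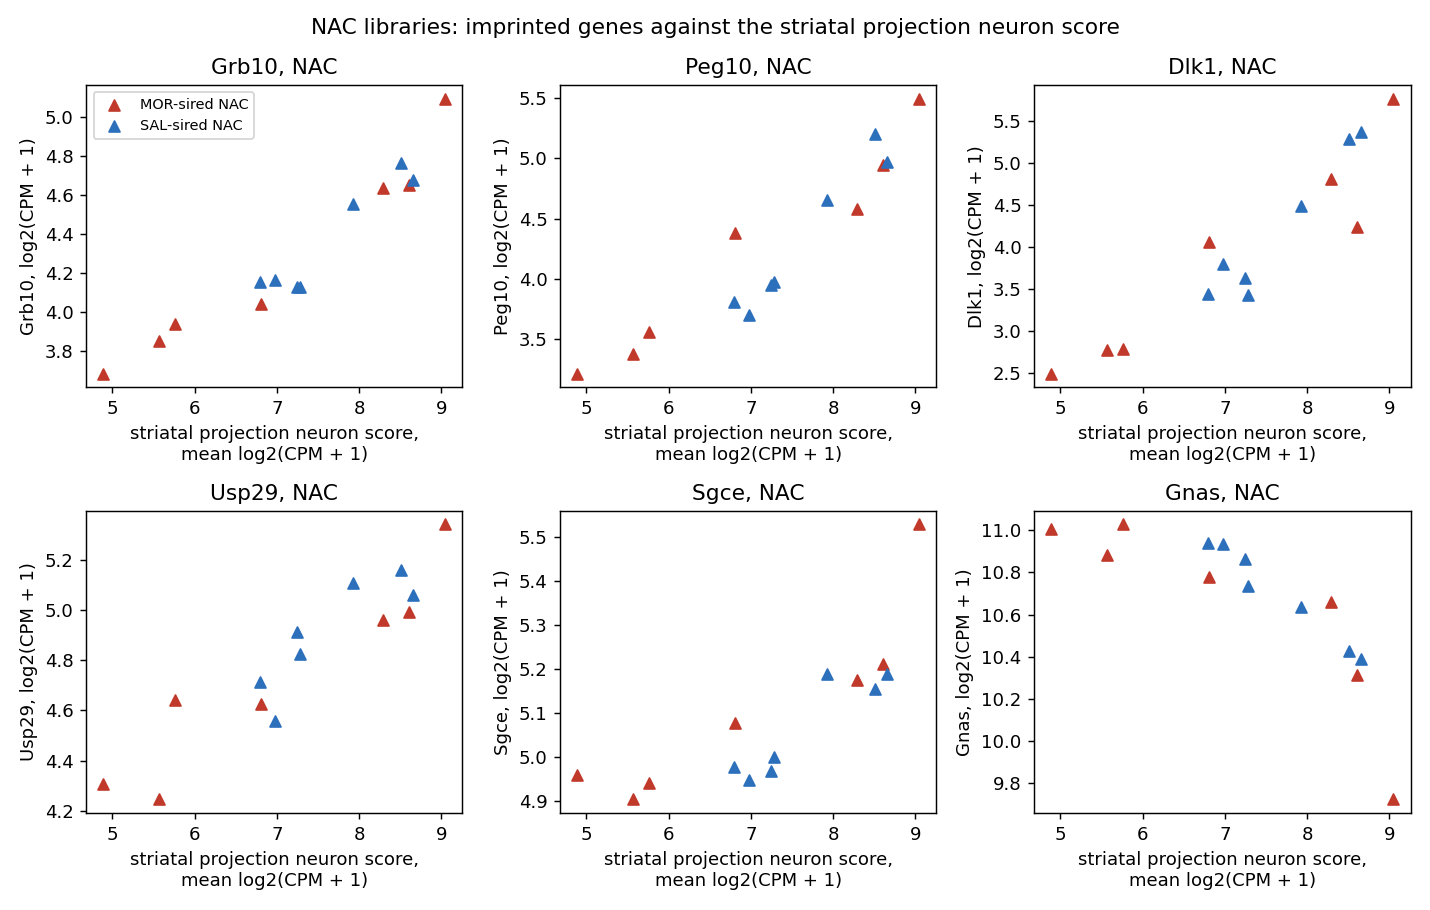
Level of 6 imprinted genes, log2(CPM + 1), against the striatal projection neuron score, the mean log2(CPM + 1) of its 9 markers, with 1 triangle per NAC library, red for MOR-sired and blue for SAL-sired. Grb10, Peg10, Dlk1, Usp29 and Sgce rise with the score, Gnas falls, and the red triangles span the wider range of scores.

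The promoter neighbours Peg10 and Sgce followed each other in NAC (r = 0.903, permutation p = 1e-05, the smallest that can be given, adjusted p = 0.00015 over 15 relations; rho = 0.921) and in each sire group (r = 0.942 in MOR-sired and 0.933 in SAL-sired NAC). Across the 10 VTA libraries r was 0.09 (adjusted p = 0.804). Peg3 and Usp29 had r = 0.824 in NAC (adjusted p = 0.00095; rho = 0.767, adjusted p = 0.0119) and 0.705 in VTA (adjusted p = 0.0876). Peg10, Sgce and Usp29 also rose with the striatal projection neuron score in NAC, and its part in these relations was not tested. Other neighbours did not pass in either region, among them Dlk1 and Meg3 (r = 0.09 in VTA and 0.476 in NAC) and Nnat and Blcap (r = 0.196 in VTA and 0.228 in NAC). Among the same 15 relations, Rasgrf1 and the cortical score had r = 0.629 (adjusted p = 0.0451) and rho = 0.684 (adjusted p = 0.027) in NAC, but adjusted over the 340 relations neither passed (adjusted p = 0.0805 for r and 0.0774 for rho). Its r was 0.56 without MOR-sired NAC 4 and 6, 0.645 in MOR-sired and 0.441 in SAL-sired NAC, 0.886 in libraries 1 to 8 and 0.432 in libraries 9 to 14. In VTA it was -0.142 (adjusted p = 0.702). Cdkn1c with the endothelial score and Ndn with the serotonin score passed in neither region.

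In VTA the clearest relation was that of Dlk1 with the dopamine neuron score, with r = 0.971 (adjusted p = 0.0003) and rho = 0.988 (adjusted p = 0.0003) over 10 libraries. It was 0.941 without the libraries farthest from the median, SAL-sired VTA 3 and MOR-sired VTA 2. Groups of 5 are too few for values within them. The genes most like Dlk1 across VTA libraries, by Pearson r of log2(CPM + 1), were Drd2, Prima1, Gpr161, Chrm5 and Slc10a4 (r from 0.978 to 0.985). In NAC they were Adissp, Pygl, Flrt3, Gadd45a and Pde7b (0.96 to 0.972). In NAC, where dopamine markers are scarce, r of Dlk1 with the dopamine neuron score was -0.685 (adjusted p = 0.00574; rho = -0.719, adjusted p = 0.0188), and -0.466 without the farthest libraries. It was -0.859 in MOR-sired and -0.357 in SAL-sired NAC. That call was lost with log2(CPM + 0.1) (r = -0.538, adjusted p = 0.0849), and over the 340 relations rho did not pass (adjusted p = 0.0594).

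Igf2 is known to be read from both copies in tissue at the brain's borders in rodents, and its relation to markers of that tissue was not the same for each score and region. In VTA its r with the meningeal fibroblast score was 0.962 (adjusted p = 0.00165; rho = 0.806, adjusted p = 0.0574), and 0.617 without SAL-sired VTA 1 and 2. In NAC its r with the choroid plexus score was 0.87 (adjusted p = 0.00075; rho = 0.776, adjusted p = 0.011), and 0.633 without SAL-sired NAC 7 and 6. Within the sire groups it was 0.656 in MOR-sired and 0.931 in SAL-sired NAC. Igf2 and the meningeal score did not pass in NAC (r = 0.734, adjusted p = 0.0585; rho = 0.354, adjusted p = 0.303), with r of -0.0385 without SAL-sired NAC 7 and MOR-sired NAC 3, and 0.00401 in MOR-sired and 0.862 in SAL-sired NAC. Igf2 and the choroid plexus score in VTA passed by r (0.805, adjusted p = 0.0196) and not by rho (0.455, adjusted p = 0.408), and r lost its call without the 4 Xist-expressing libraries (0.811, adjusted p = 0.167). The genes most like Igf2 were Vim, Zic2, Bgn, Cp and Fbln1 in VTA (r from 0.971 to 0.985) and Cdkn1c, Tmem255b, Ptgds, Col1a2 and Ttr in NAC (0.788 to 0.841). Those most like Cdkn1c included Bgn, Slc6a13, Cp and Zic2 in VTA (0.961 to 0.98) and were Igf2, Igfbp2, Tmem255b, Ttr and Ptgds in NAC (0.792 to 0.841).

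**Figure D5:**
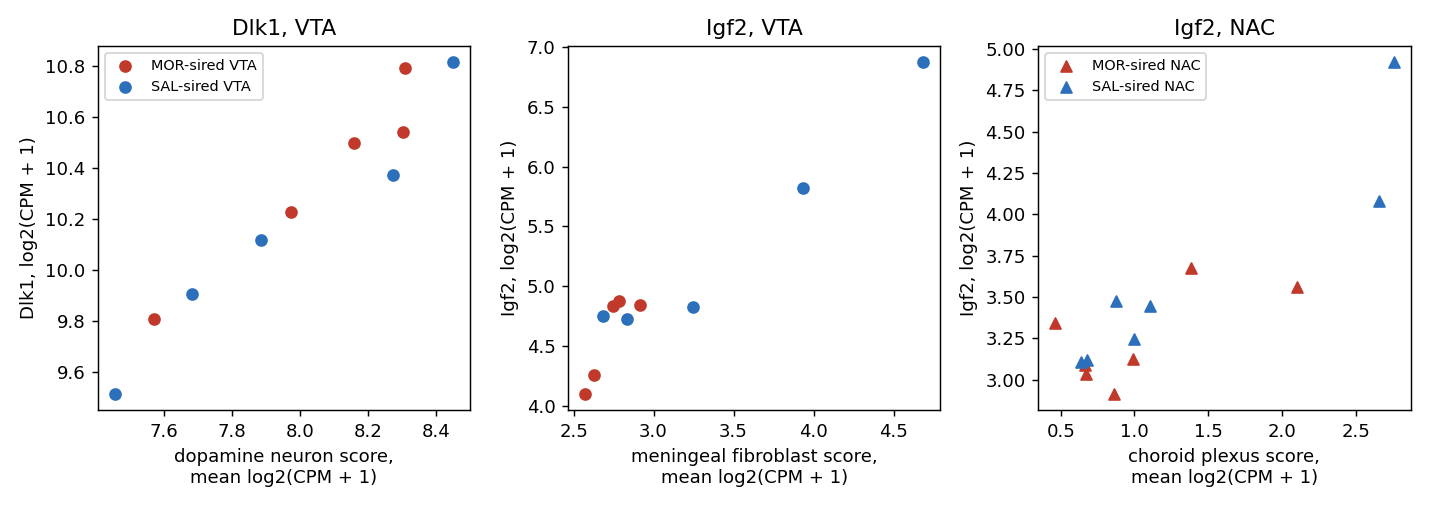
Dlk1 against the dopamine neuron score in VTA, Igf2 against the meningeal fibroblast score in VTA and Igf2 against the choroid plexus score in NAC, all as log2(CPM + 1) or its mean over markers, with 1 point per library, red for MOR-sired and blue for SAL-sired. Dlk1 rises evenly with its score, while the Igf2 relation in VTA leans on SAL-sired VTA 1 and 2.

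Likeness differed for the other 3 genes examined in this way. The genes most like Peg10 were Gata3, Slco3a1, Otp, Gata2 and Tph2 in VTA (0.851 to 0.891), with Gata3 and Tph2 among the serotonin markers, and Car12, Pde1c, Rgs2, Arpp21 and Rtl5 in NAC (0.975 to 0.978). Those most like Calcr were Smim5, Apod, Dbndd2, Mbp and Fam43a in VTA (0.88 to 0.925) and Pbdc1, Tank, Lcmt1, Klf5 and Anp32a in NAC (0.915 to 0.96), where MOR-sired NAC 4 stood far above the rest for Calcr. Those most like Ndn were Blcap, Fads3, Rab3a, Hps6 and Taf6 in VTA (0.966 to 0.987) and Ap3m2, Cachd1, Tmx2, Cotl1 and Nrp1 in NAC (0.848 to 0.924).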

How the data were processed

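Trim Galore, kallisto and DESeq2 are named in the submitters' processing notes, without versions. The authors deposited estimated counts, 1 table per region, which per the file headers and names were scaled from TPM to each library's total. They are thus corrected for transcript length and are not read counts, so no counting interval was computed. Genome build, annotation and strand setting were not given in the sources used here.

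The expected counts were rounded. Genes passing edgeR's filterByExpr were tested by quasi-likelihood (edgeR 4.0.16, R 4.3.3, TMM factors), with Benjamini-Hochberg adjustment over all genes kept. A call is an adjusted p under 0.05, two-sided. Sire effects were fitted per region, and VTA against NAC and the difference of sire effects over all 24 libraries with 4 group means. The tables entered 1 fit because values are scaled within each library. SE is the log2 fold change over the square root of F, and levels are plain CPM. Correlations used log2(CPM + 1) with 100000 permutations (scipy 1.17.1) and 15 fixed relations per region. Fits were tested on simulated counts.

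Alternatives were DESeq2 1.42.0, RLE factors, library totals, no filter, each library left out, a replicate block and removal of the 4 Xist-expressing libraries. For the sire effect within each region limma-voom with sample quality weights (limma 3.58.1) was also run. Library number was a covariate for the sire effect in NAC only. Summing Snrpn and Snurf, score covariates, genes kept in both regions and the relations of all members with 10 scores were added after seeing the data. All 36 members are accounted for. Genes of other lists were named where called, or as the 3 of smallest p, and for 6 members the 5 genes of highest r with a mean of at least 5 CPM. Some genes that this rule names are not reported here. Members and lists were chosen with earlier results of these data known. Sequences are from the RefSeq promoter table, assembly GRCr8.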

Additional observations from a re-analysis of the deposited data

Results flagged for a closer look

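In 134 sets examined, each 1 member in 1 group of libraries, the highest or lowest value stood apart by Dixon's criterion in 10. For independent sets chance alone gives about 1 in 20, or 6.7, but these sets share the same 24 libraries. In MOR-sired NAC 4, the most striatal punch, this held for Calcr at 8.11 CPM (next highest 1.16), Rtl1 at 1.08 CPM (next 0.582) and Nnat at 472 CPM, the lowest (next 786). The part of the punch's make-up in these values was not tested. Snurf stood high in MOR-sired NAC 7 at 1356 CPM (next 1041), and in SAL-sired VTA 4 at 1199 CPM (next 854). In SAL-sired NAC 7, the NAC library highest in choroid plexus and meningeal markers, Igf2 was at 29.2 CPM (next 15.9). In SAL-sired NAC 4, Ube3a was lowest at 15.9 CPM (next 19.5). Peg10 was highest in MOR-sired VTA 1 at 71.2 CPM (next 57.5). MOR-sired VTA 2 was lowest for Snrpn at 17.8 CPM (next 21.7) and for Grb10 at 45.2 CPM (next 60.2).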

How the results depend on the processing

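Weighted limma-voom and the library number covariate were run for sire effects only, and not for VTA against NAC. Of the 31 members called between VTA and NAC, 27 kept direction and call in every alternative planned at the outset and run for that comparison. The others were Copg2 (log2 0.09 with the replicate block, adjusted p = 0.056, and 0.09 in SAL-sired libraries only), Ube3a (0.19) and Meg3 (0.36) without the 4 Xist-expressing libraries, and Calcr (1.33) in SAL-sired libraries only. Mkrn3 reversed to -0.0301 with the block and ran from -0.0332 to 0.102 with each library left out. Counts of all genes called moved between fits: DESeq2 called 4 genes for the sire effect in NAC, 27 in VTA and 93 for the difference, limma-voom with sample quality weights called 52 in NAC, and without the Xist-expressing libraries 7 were called for the difference, with no member among them in any of these fits. The cause was not tested. With the replicate block 0 genes were called for both sire effects. For VTA against NAC the block fit called 13335 of 20427 genes (4196 at 2-fold or more). That fit, which also gave the block values of Copg2 and Mkrn3, left out NAC libraries whose replicate number no VTA library shares. It therefore differs from the main fit in its samples as well as in the block. Same-numbered libraries did not deviate together (correlations from -0.183 to 0.123), so the numbers are not taken as pairs.

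Some sire effects, none of them called, changed sign. In VTA, Snrpn was 0.00218 with DESeq2, 0.00112 with RLE factors, 0.00655 without the filter, 0.00698 with the block, and -0.0749 to 0.0541 with a library left out. Library totals gave Peg3 -0.0305 and Ndn -0.0270, removal of the Xist-expressing libraries gave Meg3 -0.13, and the meningeal covariate, added later, gave Igf2 0.11 in place of -1.01, Cdkn1c 0.30 in place of -0.67, Ndn -0.0606 and Meg3 -0.0164. With a library left out, Ndn ran from -0.00340 to 0.12 and Mest from -0.0742 to 0.000743. In NAC, Snrpn was -0.00626 with weighted limma-voom and -0.0543 to 0.0633 with a library left out, and Dlk1 was 0.11 with the striatal covariate and -0.697 to 0.0795 with a library left out. Of the relations, 3 in place of 5 passed in NAC with log2(CPM + 0.1), and without the Xist-expressing libraries r in VTA was -0.78 for Dlk1 and Meg3, -0.10 for Peg10 and Sgce and -0.22 for Nnat and Blcap. Low members (Phlda2, Dio3 in VTA, Asb4 in NAC, H19) lie too near 0 CPM for folds to be read. With library totals alone the median log2 fold change of all genes was -0.0898 for the sire effect in VTA and -0.113 for VTA minus NAC, against -0.00651 and -0.00236 with TMM factors, so single genes under that setting are to be read relative to those medians.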
